A study of Mus musculus with 8 samples.

Results

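The comparison described here is between testes of Ip6k1 knockout mice and of wild type littermates at 17 days postpartum (dpp). It rests on 4 of the 8 arrays of the series, chosen by the age and genotype in their labels, with 2 arrays for each genotype. Both genotypes were C57BL/6 mice born to Ip6k1+/- parents: the wild type pups were Ip6k1+/+ and the knockouts Ip6k1-/-. The pups were not yet weaned and were euthanised with CO2 before the testes were removed, and the 2 arrays of a genotype are labelled as biological replicates. The remaining 4 arrays hold the same genotypes at 26 dpp, after weaning, and serve as a second age and as part of the estimate of the spread. The part of Ip6k1 that the knockout allele lacks, and whether an RNA sample came from 1 animal or several, do not appear in the labels or file headers.

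Ip6k1 encodes inositol hexakisphosphate kinase 1, an enzyme that adds a phosphate to inositol hexakisphosphate and so makes an inositol pyrophosphate, a small signalling molecule. The testis of a juvenile mouse carries the first, synchronous wave of spermatogenesis, in which spermatogonia enter meiosis, become spermatocytes and later round and elongating spermatids. Sertoli cells nurse these germ cells inside the tubule, and Leydig cells between the tubules make androgens. The epididymis, the duct attached to the testis, arises from the mesonephric duct and is known for region-specific secretion of cysteine-rich proteins, lipocalins, beta-defensins and protease inhibitors that coat sperm. Germ cell, somatic and epididymis-type transcripts are therefore described in turn.

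Values are log2 signals minus the array's own 75th percentile, so that 0 is the level of a probe at that percentile and each unit is a doubling. A probe counts as measured on an array where the scanner software marked it as well above background. At 17 dpp the 75th percentiles were 512 and 503 intensity units for the wild type arrays and 520 and 470 for the knockout arrays, and 62.7% to 64.7% of probes were well above background. Across the genes tested, which are not independent replicates, the wild type arrays correlated at 0.989 and the knockout arrays at 0.979, and arrays of unlike genotype at 0.978 to 0.986. Knockout replicate 2 of 26 dpp stood apart, with correlations of 0.917 to 0.948 with the arrays of 17 dpp and of 0.863 with its own replicate. It enters the estimate of the spread below, and the count of genes passing the test is given with and without it.

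The targeted gene was lower in the knockout arrays. Its probe, spotted 10 times (chromosome 9, 107950832 to 107950891, mm9), read 2.19 and 2.30 in wild type against 1.36 and 1.49 in knockout. The groups did not overlap, and the difference of −0.82 (SE 0.21) was larger than the spread within either, but it did not pass the test over all genes (limma adjusted p = 1). The signal stayed well above background in both knockout arrays, and without the position of the deletion the probe gives no full check of the genotype.

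None of the other kinases of inositol pyrophosphate synthesis passed the test. Ip6k2, a paralogue of Ip6k1, read −0.84 and −0.76 in wild type against −1.06 and −1.07 in knockout. Its gap between genotypes was larger than the range within either, as it was with knockout lower in 3.11% of all genes. Ppip5k2, which phosphorylates the ring at another position, read 2.89, 2.68, 2.80 and 2.74 in wild type and knockout in that order, so its groups overlapped. Ppip5k1 had a pair of probes that disagreed, with differences of −0.06 and 0.44. Of 22 tested genes of inositol phosphate metabolism none passed, 4 lay lower and 4 higher in both knockout arrays than in both wild type arrays, and the list's median difference was −0.03. Over all 26581 genes tested, 12.8% lay lower and 16% higher in that sense, and the median difference was 0.017.

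Of these 26581 genes, 24 passed the test at a limma adjusted p under 0.05 (0.0903%), 23 of them lower in knockout (0.0865%) and 1 higher (0.00376%). Of the 23, 11 belong to the lists of epididymis-type genes described below: Crisp1, Adam7, Rnase9, Spint4, Wfdc13, Wfdc15b and 5 beta-defensins. The others were Crisp3, Rnase12, Serpina16, Npy, Iapp, Prom2, Kcnj16, Ly6f, Gm6040, Gm7538, Vmn2r67 and the probe named Defa-rs4 in the files. In 22 of the 23 neither knockout array was well above background, so their folds are lower limits, set by the dimmest signal that counts as measured on the knockout arrays. At 26 dpp, 22 of the 23 were at background on both wild type arrays, and 20 were measured on none of the 4 arrays. The 22 genes at background in knockout entered the test only through the wild type arrays of 17 dpp. They could therefore be called only as lower. The plot of the called genes shows the pattern at both ages. All these calls rest on arrays that share 1 slide and 1 scan, per the file headers, and on 2 samples a group. The spread behind their p-values was pooled over all groups, most of them at background for these genes. For Crisp1 the standard deviation was 1.13 in wild type and 0.079 in knockout, and the SE of the difference 0.57. Such p-values can understate the spread between wild type samples. Leaving out knockout replicate 2 of 26 dpp gave 28 calls, which shared 18 with the 24, a fit of the 4 arrays of 17 dpp alone gave 0, and so did leaving out either knockout array or wild type replicate 2 of 17 dpp or either wild type array of 26 dpp. Another background correction gave 2 calls, that correction with quantile normalization 1, a variance trend 4 and no filter on dim probes 8. With every tested probe well above background on all 4 arrays of 17 dpp, 0 genes were called. At an unadjusted limma p under 0.05 there were 383 genes (1.44%), 241 of them lower (0.907%) and 142 higher (0.534%).

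**Figure D1:**
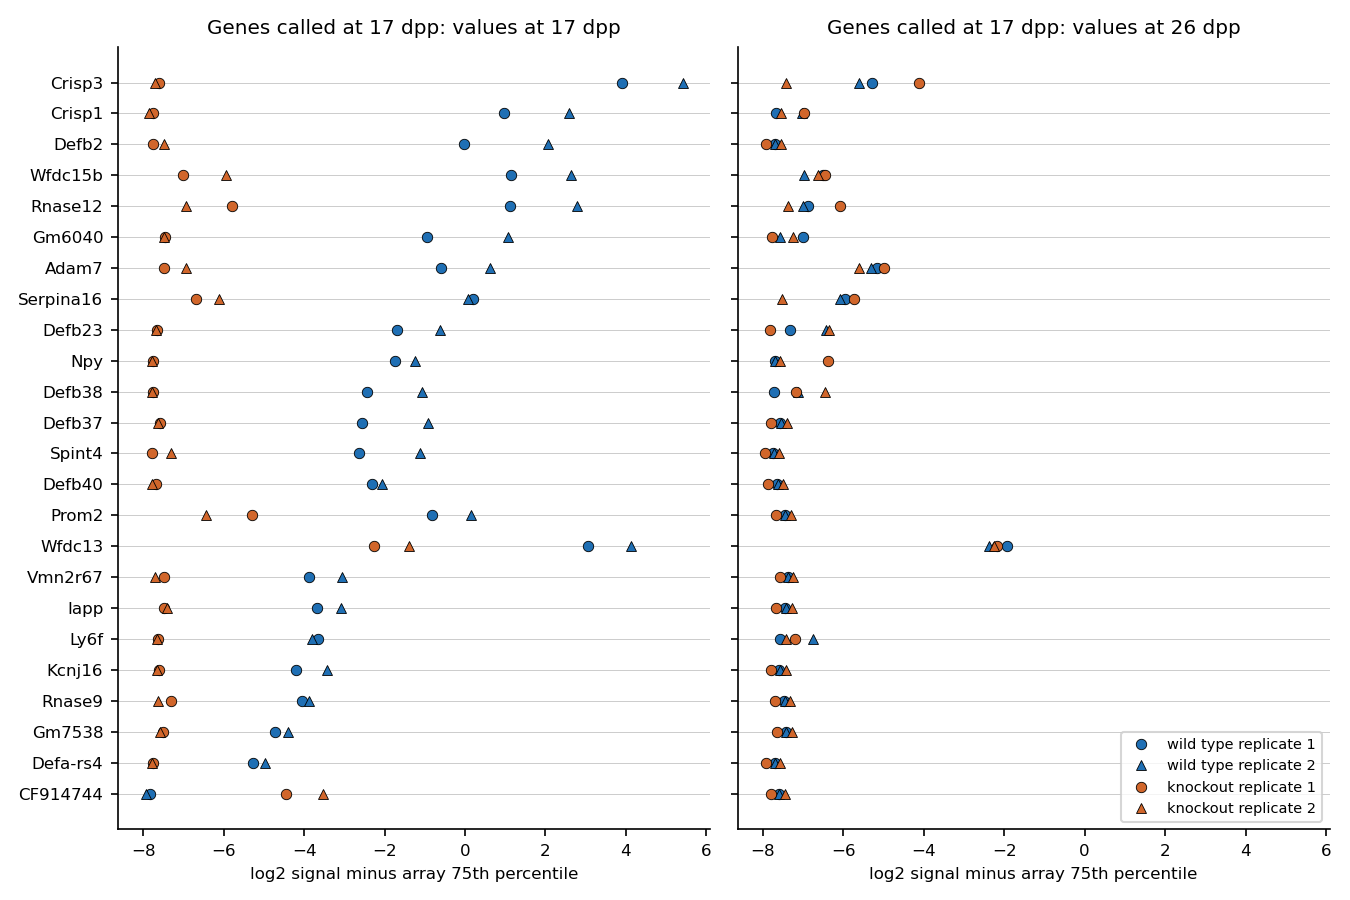
Log2 signal minus the array's 75th percentile (x axis) of the 24 genes called at 17 dpp (y axis), for each array of 17 dpp (left) and of 26 dpp (right); blue marks are wild type, orange marks knockout, circles replicate 1 and triangles replicate 2. At 17 dpp every one of the 23 lower genes has both wild type marks to the right of both knockout marks, while at 26 dpp the marks of both genotypes lie together, mostly at the dim end.

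Crisp3 and Crisp1 had the largest differences among the called genes when background values are taken as measured. By lower limits, Rnase12 (at least 178-fold) and Wfdc15b (at least 172-fold) came before Crisp1. The 2 Crisp genes encode cysteine-rich secretory proteins, abundant in male reproductive ducts and in salivary gland. Crisp3 (chromosome 17, 40358752 to 40358811) read 3.90 and 5.42 in wild type against −7.60 and −7.70 in knockout. The wild type arrays were thus far above the 75th percentile while both knockout arrays were at background, and the gene was at least 1166-fold lower in knockout (limma adjusted p = 0.0367). Crisp1 (chromosome 17, probe spanning 40435143 to 40438282) read 0.97 and 2.58 in wild type against −7.75 and −7.87 in knockout, at least 158-fold lower (limma adjusted p = 0.0316). Because the genes are close relatives, cross-hybridisation between their transcripts was not tested.

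Since both genes lie side by side and moved together, their promoters are shown, from 250 bases before to 50 bases after the start, as RefSeq gives them on GRCm38.p6 (minus strand, chr17:40242239-40242538 for Crisp3 and chr17:40319158-40319457 for Crisp1). Capitals mark TATAAA and, in Crisp1, AGAACA.
Crisp3: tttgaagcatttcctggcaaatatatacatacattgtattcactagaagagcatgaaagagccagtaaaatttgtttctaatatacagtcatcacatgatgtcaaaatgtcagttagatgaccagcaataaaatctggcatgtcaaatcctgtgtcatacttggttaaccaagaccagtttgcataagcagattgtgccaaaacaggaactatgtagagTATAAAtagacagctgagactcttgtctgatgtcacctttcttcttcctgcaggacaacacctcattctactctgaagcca
Crisp1: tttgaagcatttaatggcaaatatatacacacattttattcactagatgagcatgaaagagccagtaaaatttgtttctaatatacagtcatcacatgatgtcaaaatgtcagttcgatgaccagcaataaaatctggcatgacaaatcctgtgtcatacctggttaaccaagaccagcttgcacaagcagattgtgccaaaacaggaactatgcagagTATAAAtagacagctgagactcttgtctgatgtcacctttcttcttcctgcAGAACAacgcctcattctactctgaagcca

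The 2 windows differ at 13 of 300 positions without gaps, that is, they share 95.7% of their bases. TATAAA begins 31 bases before the start in both. AGAACA is the reverse complement of TGTTCT, the core letters of an androgen receptor element. It occurs only in the Crisp1 window, where it begins 20 bases after the start. RefSeq promoters were found for 17 of the 23 lower genes. Searched on both strands, TATAAA was present in 5 of the 20 promoters of these 17 genes and in 13.6% of all 32851 promoters of that length. Of those 5, 2 are the near-identical Crisp windows. TGTTCT was present in 6 of the 20 and in 19% of all. A match is a run of letters and was not tested as a binding site.

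Of the beta-defensins, small antimicrobial peptides encoded in clusters, 5 fell. Defb2 read −0.03 and 2.06 in wild type against −7.75 and −7.48 in knockout, at least 93.1-fold lower (limma adjusted p = 0.0348). Defb40, with the smallest adjusted p of all genes (0.0119, limma), read −2.32 and −2.06 in wild type against −7.69 and −7.79 in knockout, at least 10.1-fold lower. In Defb40 the wild type arrays were close together, whereas in Defb2 the second was higher. Defb23, Defb37 and Defb38 were at least 20.8-fold, 13.8-fold and 13.7-fold lower.

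Among secreted protease inhibitors, Wfdc15b, Wfdc13, Spint4 and Serpina16 fell. Wfdc13, of the whey acidic protein family, was the single called gene that was measured on all 4 arrays, with 3.06 and 4.12 in wild type against −2.27 and −1.40 in knockout, a difference of −5.43 (SE 0.46; limma adjusted p = 0.0367). Its relative Wfdc15b read 1.15 and 2.64 in wild type against −7.01 and −5.94 in knockout and was at least 172-fold lower (limma adjusted p = 0.0316). Both therefore had wild type and knockout values several units apart. Spint4, which carries a Kunitz inhibitor domain, and Serpina16, a serpin, were at least 12.6-fold and 50.8-fold lower. Serpina16 read 0.21 and 0.07 in wild type, and so was among the few called genes without a higher second wild type array.

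Adam7, a membrane protein of epididymal epithelium, read −0.61 and 0.63 in wild type against −7.49 and −6.95 in knockout, at least 46.4-fold lower (limma adjusted p = 0.0316). Rnase12 and Rnase9, ribonuclease A relatives of the male tract, were at least 178-fold and 2.96-fold lower. Rnase9 read −4.04 and −3.87 in wild type, near the dim end even there, so its limit is small. Prom2, a protein of epithelial membrane protrusions, was at least 34.4-fold lower.

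A few called genes are not known chiefly as epididymal secretions. Npy, the neuropeptide Y precursor, read −1.74 and −1.24 in wild type against −7.76 and −7.79 in knockout, at least 16.4-fold lower (limma adjusted p = 0.0316). Iapp, which encodes the islet hormone amylin, and Kcnj16, a potassium channel subunit, were at least 4.41-fold and 3.27-fold lower, and Ly6f, of the Ly6 family, at least 3.47-fold. The predicted genes Gm6040 and Gm7538, the vomeronasal receptor Vmn2r67 and the Defa-rs4 probe were at least 48.0-fold, 1.95-fold, 4.18-fold and 1.33-fold lower. Several of these belong to families of near-identical copies, and which copy the signal came from was not tested.

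The single gene that rose is named in the files only by an expressed sequence tag, CF914744 (chromosome 3, 107553659 to 107553718). Both wild type arrays were at background, at −7.83 and −7.94, and the knockout arrays read −4.45 and −3.52, at least 3.29-fold above (limma adjusted p = 0.0367). It was dim on all 4 arrays of 26 dpp and so entered the test only through the knockout arrays of 17 dpp.

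Some called genes lay within 1 Mb of another called gene, and their neighbours did not all follow. The windows below were drawn around such genes, so counts in them include the called ones. On chromosome 8, Defb40, Defb37 and Defb38 lie between 18974949 and 19023564, where 11 genes were tested within 0.25 Mb on either side. Besides the called ones, Spag11a, a beta-defensin-like sperm-associated antigen, read −0.28 and 1.71 in wild type against −5.61 and −5.96 in knockout (at least 75.8-fold lower, limma adjusted p = 0.0692), and Defb39 was at least 2.93-fold lower without passing. Mcph1, a DNA damage response gene in the same window that was chosen after its value was seen, differed by 0.31. On chromosome 2, around Wfdc15b, Wfdc13 and Spint4, 15 of 54 tested genes lay lower in both knockout arrays and 5 higher. Of all genes tested, 12.8% lay lower and 16% higher in that sense. There Wfdc16, another inhibitor of that family, was at least 27.4-fold lower and Wfdc8 differed by −2.98, neither passing, while Wfdc10 (6.15 and 6.36 against 6.00 and 5.98) and Eppin (3.59 and 3.42 against 3.50 and 3.46), both measured on all 4 arrays, differed by −0.26 and −0.02. On chromosome 14, next to Rnase9 and Rnase12, Eddm3b, an epididymal secretory gene, differed by −5.03, whereas Rnase10 differed by 0.37.

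The lists of epididymis-type genes show how far the pattern reached. Among 104 tested genes of these lists (of 148 on the array), 11 were called lower and none higher. Of the 104, 57 lay lower in both knockout arrays and 8 higher, with a median difference of −0.58. However, 26 of the 104 entered the test only through the wild type arrays of 17 dpp and so had to be lower in knockout. All of the 11 called genes except Wfdc13 were among these 26. With no filter on dim probes the median over these lists was −0.38, and over the 64 members measured on all 4 arrays it was −0.22, with 27 lower and 5 higher. For all genes tested the shares were 12.8% lower and 16% higher, and for all genes measured on all 4 arrays 12.9% and 13.7%.

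The beta-defensins had a median of −2.29 over 28 tested of 43 on the array (−1.57 with dim members at their limit and −0.65 with no filter). In that group 19 lay lower in both knockout arrays and none higher, and 11 had entered only through wild type. Defb42 and Defb28, both measured on all 4 arrays, read 1.64 and 3.91 and 0.87 and 2.98 in wild type against −3.42 and −5.13 and −2.93 and −4.18 in knockout. Neither passed (limma adjusted p = 0.69 and 0.194). The genotypes did not overlap in either gene, yet arrays of one genotype were over 1 unit apart. Another Defb28 probe read 3.67 and 5.52 in wild type against −6.99 and −7.83 in knockout, a wider difference of −12.0. Another Defb42 probe was dimmer, at −4.38 and −2.53 against −7.67 and −7.13. The knockout level of these genes thus depends on the probe.

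Of the epididymis secretory genes, 20 of 30 were tested, 4 were called lower, 10 lay lower in both knockout arrays and 4 higher, and the median difference was −0.48. Of the 20, 7 had entered only through wild type, and with no filter the median was −0.30. Lcn5, a lipocalin that binds retinoic acid, read −0.52 and 2.68 in wild type against −7.61 and −7.71 in knockout (at least 97.3-fold lower), and Cuzd1 was at least 67.9-fold lower. Their limma adjusted p-values, 0.080 and 0.0504, missed the threshold. Of the Wfdc, Spink and cystatin inhibitors, 32 of 40 were tested, 2 were called lower, 17 lay lower in both knockout arrays and 1 higher, and the median was −0.26, with 5 that had entered only through wild type. Spink8, a Kazal inhibitor, read 4.16 and 6.19 in wild type against −6.72 and −6.28 in knockout. It was at least 1665-fold lower, a larger limit than that of any called gene, without passing (limma adjusted p = 0.0656), and Spink11 was at least 43.2-fold lower (limma adjusted p = 0.093). Just outside the threshold as well, the serpin Serpina1f was measured on all 4 arrays at 0.95 and 3.02 in wild type against −4.34 and −4.04 in knockout, a difference of −6.18 (limma adjusted p = 0.0995).

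Of the genes of the duct wall, as opposed to its secretions, none passed. Of 23 tested mesonephric duct and epithelial genes, 12 lay lower in both knockout arrays and 1 higher, with a median of −0.62, and 3 had entered only through wild type. Over the 16 measured on all 4 arrays the median was −0.50, with 8 lower and 0 higher. Krt8, a keratin of simple epithelia, read −0.37 and 1.29 in wild type against −2.47 and −2.89 in knockout. Foxi1, a regulator of the duct's clear cells, differed by −2.77 without passing. Elf3, an epithelial transcription factor, and Emx2 and Hoxa10, patterning genes of the duct, were at background on both knockout arrays, at least 2.79-fold, 2.88-fold and 2.02-fold below wild type. Epcam, an epithelial adhesion molecule that germ cells also express, read 0.91 and 1.26 against 0.36 and 0.41. Cdh16, a cadherin of kidney and duct epithelium, and Cd52, a surface glycoprotein that the epididymis makes in quantity, differed by −4.68 and −4.46. Of the seminal vesicle and prostate genes only 5 of 15 were tested, and their median was −0.09.

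**Figure D2:**
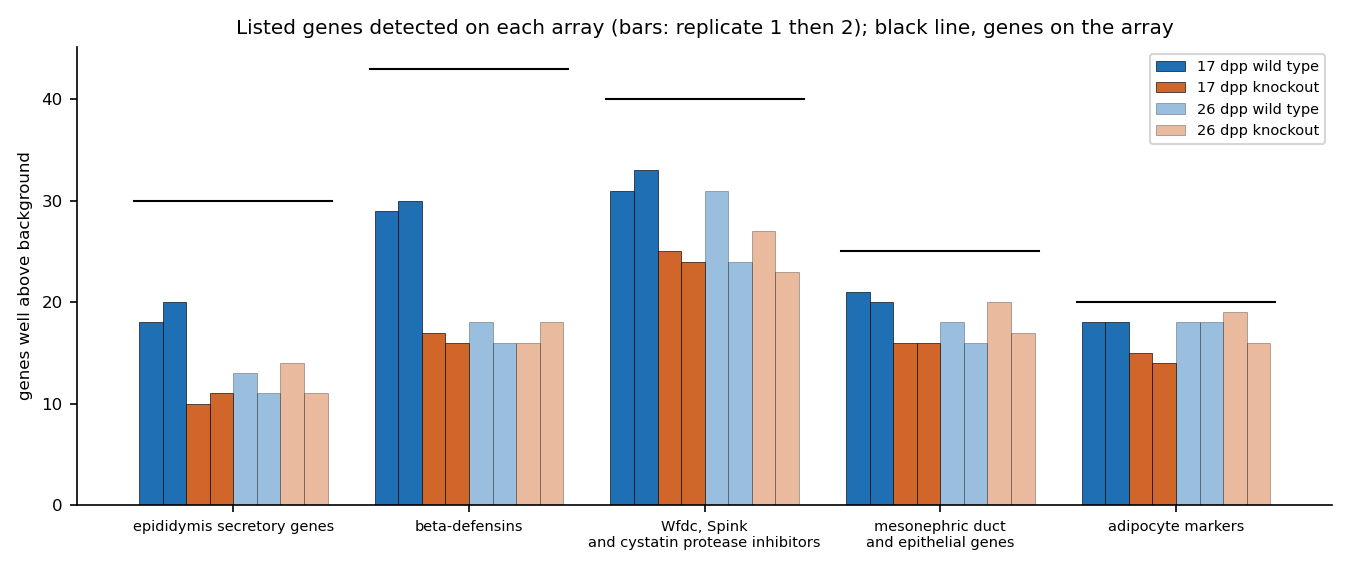
Number of listed genes well above background (y axis) on each array, for 5 gene lists (x axis); blue bars are wild type and orange bars knockout, full colour 17 dpp and pale colour 26 dpp, replicate 1 before replicate 2, and the black line marks how many listed genes the array holds. At 17 dpp the wild type arrays measured 29 and 30 of 43 beta-defensins and the knockout arrays 17 and 16, near the 16 to 18 of all 26 dpp arrays.

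The count of measured genes per array gives the same picture without a fold. At 17 dpp the wild type arrays measured 18 and 20 of the 30 epididymis secretory genes and the knockout arrays 10 and 11. For the inhibitors it was 31 and 33 against 25 and 24 of 40, and for the duct genes 21 and 20 against 16 and 16 of 25. Of the beta-defensins 17 and 16 were measured on the knockout arrays of 17 dpp, and 16 to 18 on the arrays of 26 dpp in either genotype, as the plot of detected genes shows.

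The members were also read by whether they were measured at 26 dpp. Of the 104 genes, 57 were well above background on all 4 arrays of 26 dpp; their median difference at 17 dpp was −0.22 and 1 was called. In this set 24 lay lower in both knockout arrays and 3 higher. Of all 22087 genes well above background on the 4 arrays of 26 dpp, 2794 lay lower and 2992 higher. Another 20 of the 104 were measured on none of the arrays of 26 dpp. They had entered through the arrays of 17 dpp, so no count over them is given. Some of the 104 genes are made by Sertoli cells too and are also in the Sertoli cell list. Of these, Defb19 read 5.77 and 5.64 in wild type against 5.58 and 5.86 in knockout, and Defb36, Cst9 and Cst12 differed by −0.19, −0.19 and −0.10, Defb36 and Cst9 with both knockout arrays below both wild type arrays. The difference between the effects at 17 and at 26 dpp was itself tested, and 0 of 26581 genes passed (limma), with 505 at an unadjusted p under 0.05. That count was 8639 without knockout replicate 1 of 26 dpp, which leaves the array that stood apart alone in its group, 2 without knockout replicate 2 of 26 dpp and 3 without wild type replicate 1 of 17 dpp.

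The wild type arrays were not alike in these transcripts. In 21 of the 23 lower genes wild type replicate 2 exceeded replicate 1, by a median of 1.06, whereas it did so in 46.8% of all genes. Adipocyte markers, genes known from fat cells, also differed between the wild type arrays. Of 19, 16 were higher in wild type replicate 2 than in replicate 1, by a median of 3.89 over the list. None of the 19 was called, 11 lay lower in both knockout arrays and 1 higher, and the median difference was −2.07. Of all genes tested, 12.8% lay lower and 16% higher in that sense. The summed signal of the list, on the log2 scale relative to the 75th percentile, reached 5.74 and 8.23 on the wild type arrays and 5.61 and 5.35 on the knockout arrays. Cfd, the adipokine adipsin, read 0.23 and 6.70 in wild type against −2.59 and −5.77 in knockout, and Car3, a carbonic anhydrase of fat and muscle, −1.80 and 3.94 against −5.63 and −7.66. Cidec, a lipid droplet protein, read −4.39 and 2.12 against −7.57 and −6.38, and its other probe −3.96 and −2.74 against −6.97 and −6.49. In all 3 genes wild type replicate 1 too was above both knockout arrays. These 3 were named for brightness or a small p-value, and the list's summed signal on that array was close to that on the knockout arrays. Leaving out wild type replicate 1 gave 13 calls, which shared 8 with the 24, and leaving out wild type replicate 2 gave 0. The part of fat, duct or other attached tissue in the difference was not tested. In a bulk sample, fewer cells of a type and less RNA per cell cannot be told apart.

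**Figure D3:**
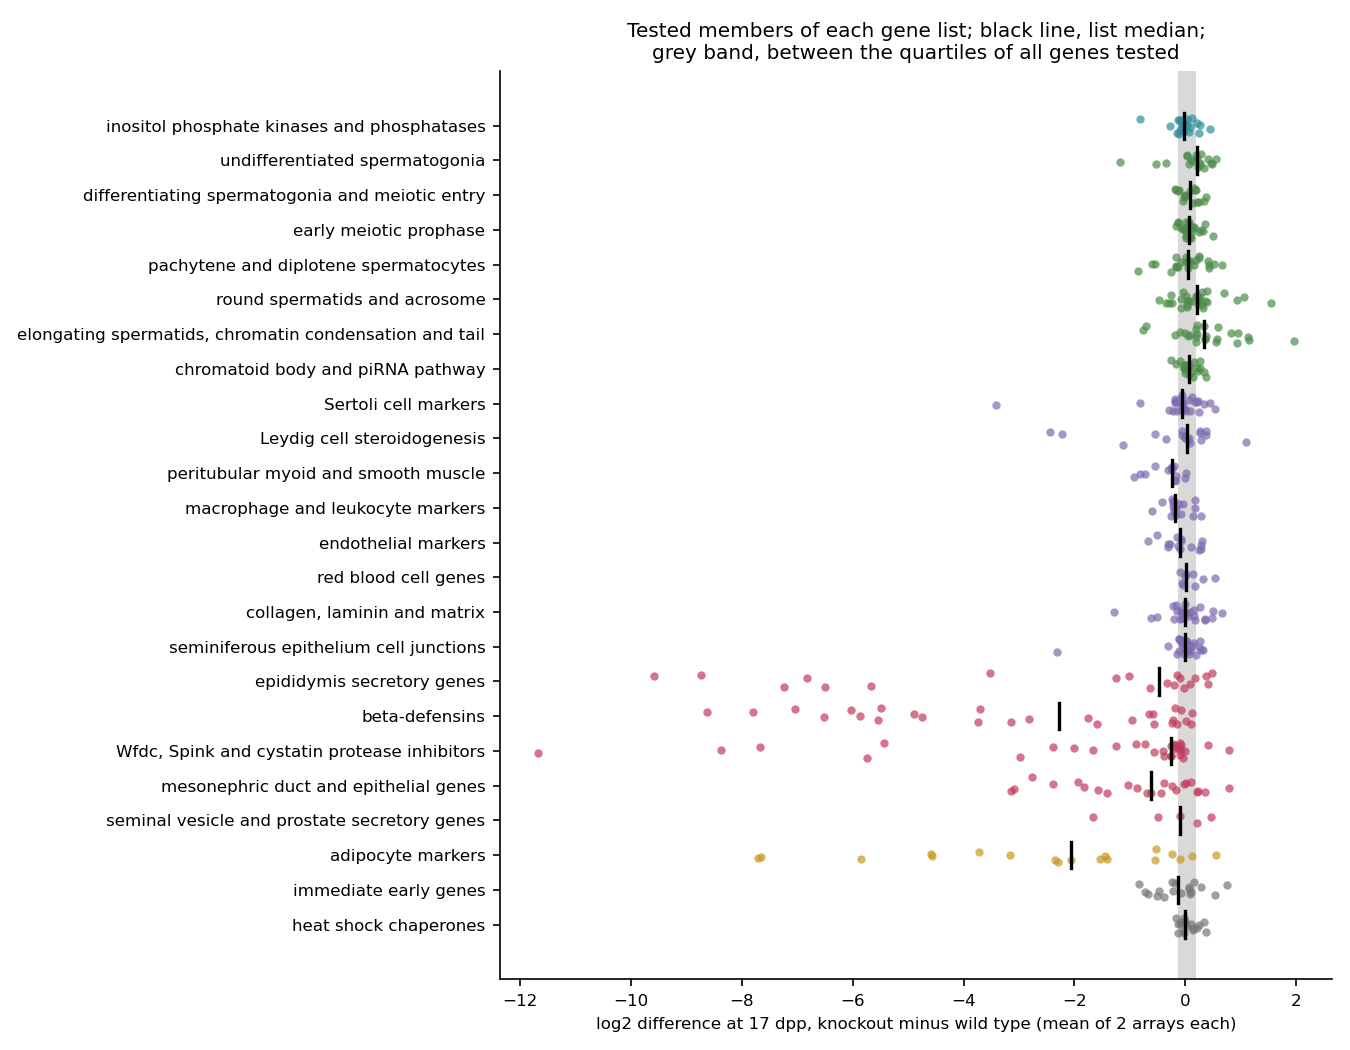
Log2 difference at 17 dpp, knockout minus wild type, with 2 arrays a genotype (x axis), for each tested member of the 24 gene lists (y axis); points are genes, coloured by class of list, the black line is the list's median and the grey band the range between the quartiles of all genes tested, −0.12 to 0.17. Differences of genes at background in knockout are plotted as measured, so their true size is unknown. Most epididymis-type lists and the adipocyte list spread far to the left, while most germ cell and somatic medians lie within the band. Above it lie the medians of undifferentiated spermatogonia (0.22) and of round (0.20) and elongating spermatids (0.34). Below it lie those of myoid cells (−0.24) and of macrophages and leukocytes (−0.19).

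Germ cell transcripts showed no call in either direction. Over 159 tested genes of 7 lists, 3 lay lower in both knockout arrays, 38 higher, and the median difference was 0.11. These counts include spermatid genes at background, whose values have no order between arrays. Among the 131 germ cell genes measured on all 4 arrays, 3 lay lower and 24 higher, with a median of 0.09. Of all genes tested 12.8% lay lower and 16% higher, and of all measured on all 4 arrays 12.9% and 13.7%. By stage the medians were 0.22 for undifferentiated spermatogonia (19 genes), 0.08 for differentiating spermatogonia and meiotic entry (17), 0.07 for early meiotic prophase (25), 0.05 for pachytene and diplotene spermatocytes (24) and 0.06 for the chromatoid body and piRNA pathway (23). Each of these medians was smaller in size than the median distance between the knockout arrays for the same list. In the round spermatid list the 2 values were alike, at 0.20 each. For elongating spermatids the median difference was the larger, at 0.34 against 0.13 between the knockout arrays.

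In spermatogonia, Sox3, a factor of progenitor spermatogonia, read 3.93 and 3.91 in wild type against 4.26 and 4.02 in knockout, and Utf1 and Neurog3, which mark undifferentiated cells, differed by 0.47 and 0.55. Of the regulators of differentiation and meiotic entry, Stra8, the retinoic acid target that licenses meiosis, read 5.24 and 5.39 in wild type against 5.92 and 5.39 in knockout, and Sohlh1 3.96 and 3.96 against 4.56 and 4.10. For both, replicate 1 of the knockout was the high array. In early meiosis, Dmc1, the meiotic recombinase, read 0.80 and 0.35 against 1.24 and 0.91, and Prdm9, which places recombination hotspots, 0.44 and 0.34 against 0.59 and 0.90, though its probes disagreed in sign.

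Spermatocyte transcripts instead split the knockout replicates. Ldhc, the germ cell lactate dehydrogenase, read 3.16 and 4.49 in wild type, 1.04 in knockout replicate 1 and 5.40 in knockout replicate 2. Adam2, a sperm surface protein subunit, read −0.69 and 0.53 in wild type against −2.56 and 1.33 in knockout. Both knockout arrays thus lay outside the wild type range on opposite sides. Piwil1, a piRNA-binding protein of spermatocytes, read −1.12 and 0.10 in wild type against −2.50 and 0.97 in knockout, and Tdrd6, a chromatoid body scaffold, −4.12 and −4.12 against −6.18 and −2.09. These 4 genes were chosen after their values were seen. By the rule, Hspa2, the chaperone of spermatocytes, had 4.40 and 4.57 against 3.69 and 4.92, and Ccna1, the cyclin of late meiotic prophase, −4.46 and −4.35 against −3.89 and −3.59.

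The split ran through the stages unevenly. In 15 of 24 pachytene and diplotene genes (62.5%) knockout replicate 1 lay below and replicate 2 above both wild type arrays, and the replicates were 1.40 apart at the median. The same held for 16 of 25 early meiotic genes (64%) and 14 of 23 of the chromatoid body and piRNA pathway (60.9%). Over all germ cell genes it held for 57 of 159 (35.8%), over all somatic genes for 4 of 154 (2.6%) and over all genes tested for 15.1%. The reverse order was found in 5 germ cell genes, in 24 somatic genes and in 9.95% of all genes. A mean difference near 0 in these lists therefore stands for replicates on both sides of wild type, as the plot by array shows, and 2 arrays give no measure of how far mice of this genotype vary.

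**Figure D4:**
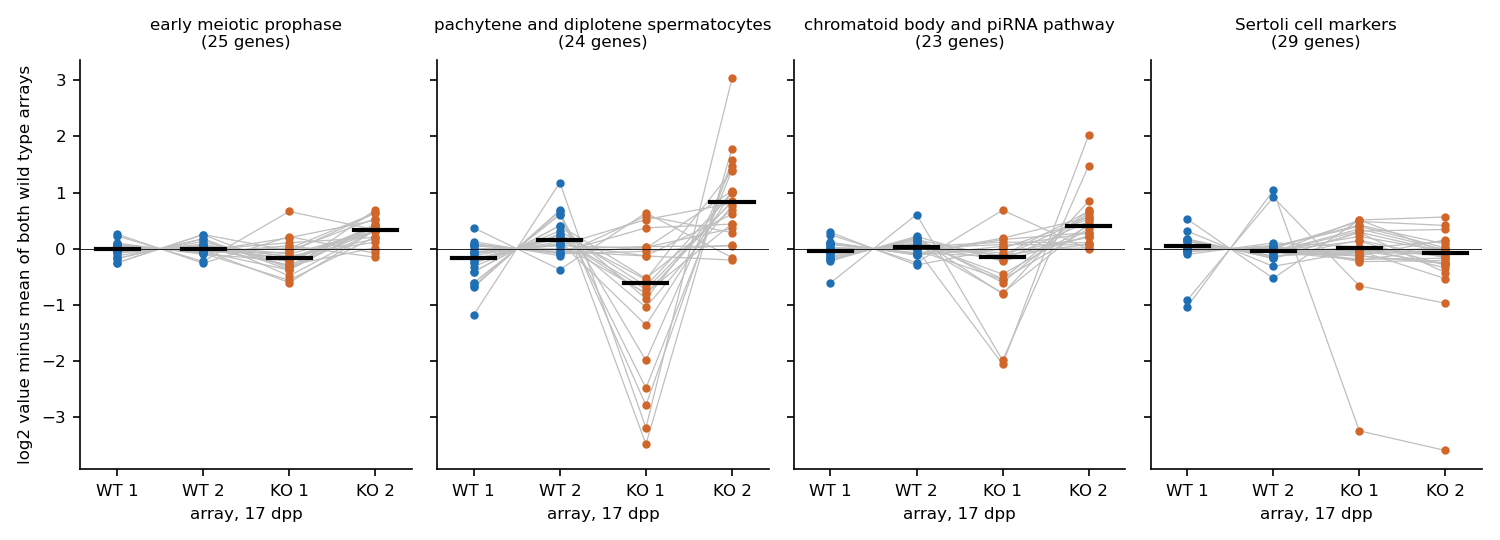
Log2 value minus the mean of both wild type arrays (y axis) on each array of 17 dpp (x axis; WT wild type, KO knockout, with replicate number), for the tested genes of 3 germ cell lists and of the Sertoli cell list; points are genes, grey lines join a gene's values and black bars are medians. In the 3 germ cell panels knockout replicate 1 lies mostly below and replicate 2 above wild type, and in the Sertoli cell panel 2 of 29 genes have that order.

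Spermatid lists held many genes at background at this age. Of 30 round spermatid and acrosome genes, 17 were measured on all 4 arrays and 10 on none, and the median difference was 0.20 over all and 0.04 over the 17. Of the 30, 9 lay higher and 0 lower in both knockout arrays, and of the 17, 1 higher and 0 lower. Of 25 genes of elongating spermatids, 14 were measured on all 4 and 5 on none, with medians of 0.34 and 0.27. Here 11 of the 25 lay higher and 1 lower, and 6 of the 14 higher and 1 lower. Of all genes tested 16% lay higher and 12.8% lower, and of all measured on all 4 arrays 13.7% and 12.9%. The counts over whole lists include genes at background. Tnp1 and Tnp2, the transition proteins that replace histones, read −2.19 and −2.22 in wild type against −1.41 and −1.86 in knockout, and −6.54 and −5.62 against −5.28 and −4.63. The protamines Prm1 and Prm2, which pack sperm DNA, read −4.72 and −4.44 against −3.90 and −3.40, and −4.74 and −4.09 against −4.42 and −3.66. The last 4 were picked with their values known, and all 4 lay below the 75th percentile on all 4 arrays. Hils1, a spermatid linker histone, was at background on both wild type arrays and at least 1.21-fold above that limit on the knockout arrays (limma adjusted p = 1). Gsg1, a germ cell protein of the endoplasmic reticulum, differed by 1.14, and Tekt1, a protein of the sperm tail, read 1.63 and 2.42 against −0.11 and 3.22.

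Somatic transcripts of the testis gave no call among 154 tested genes. In all, 25 lay lower and 15 higher in both knockout arrays, with a median of −0.05. All 154 were measured on all 4 arrays, and of all such genes 12.9% lay lower and 13.7% higher. The medians were −0.06 for Sertoli cells (29 genes), 0.03 for Leydig cells (18), −0.24 for peritubular myoid and smooth muscle (14), −0.19 for macrophages and leukocytes (18), −0.10 for endothelium (15), 0.01 for red blood cells (9), 0.00 for matrix (27) and −0.00 for junctions of the seminiferous epithelium (28).

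In Sertoli cells, Clu, the abundant secreted chaperone clusterin, read 8.39 and 8.35 in wild type against 8.28 and 8.35 in knockout. Sox9, the transcription factor of Sertoli fate, read 2.05 and 1.92 against 2.50 and 2.55, Amh, the hormone that regresses the female duct, −3.02 and −3.01 against −2.53 and −2.60, and Gdnf, a factor for spermatogonial stem cells, 0.88 and 0.76 against 1.13 and 1.16. For these 3 the gap between genotypes was larger than the range within either, as it was with knockout higher in 4.14% of all genes, and none passed (limma adjusted p = 1). Krt18, listed with Sertoli cells because immature ones express it, was low in both knockout arrays as Krt8 was, at 0.85 and 2.92 against −1.36 and −1.71. Likewise Cldn3, a tight junction protein of the tubule and of other epithelia, read 1.28 and 2.68 against −0.31 and −0.36.

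Leydig cell genes did not move as a group. Hsd17b3, the last enzyme of testosterone synthesis, read −3.75 and −4.11 in wild type against −2.62 and −3.05 in knockout, with a gap between genotypes larger than the range within either. Ptgds, a prostaglandin synthase that the epididymis also makes, and Sult1e1, an oestrogen sulfotransferase, differed by −2.44 and −2.23. Star, which delivers cholesterol to the mitochondrion, read 0.16 and −1.94 in wild type against −1.74 and −2.31 in knockout, so that wild type replicate 1 stood above the rest. In the myoid list 13 of 14 differences were below 0, as were 46.5% of all genes, and 6 genes lay lower in both knockout arrays, as did 12.8% of all. Cnn1 and Tagln, proteins of contractile cells, read 2.39 and 2.91 against 1.82 and 1.86, and 4.50 and 5.13 against 4.31 and 4.24, and Myl9 differed by −0.23. Wild type replicate 2 was the higher one in 11 of those 14 genes.

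Stress markers gave no call. Immediate early genes, which respond within minutes to stress, had a median of −0.13 over 18 genes. Of these, 6 lay lower and 1 higher in both knockout arrays, where 12.8% and 16% of all genes tested did. Nr4a1 read 3.86 and 2.91 against 2.51 and 2.58. Heat shock chaperones had a median of −0.01 over 18 genes.

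Several of the largest higher values lay near the targeted gene itself. Amigo3, a cell adhesion protein whose probe lies 6.853 kb from that of Ip6k1, read −3.49 and −3.58 in wild type against −1.31 and −1.29 in knockout, higher by 2.23 (SE 0.30, limma adjusted p = 0.184). Camp, the antimicrobial peptide cathelicidin, read −2.77 and −3.12 against 0.25 and −0.72, higher by 2.71 (SE 0.46, limma adjusted p = 0.461). Neither passed, although in each the gap was wider than the range of either group.

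With Traip, a ubiquitin ligase of DNA repair (1.08 and 1.00 against 2.43 and 2.06), and Fbxw15, an F-box protein (−3.09 and −3.04 against −1.96 and −1.31), they were 4 of the 10 genes with the largest higher differences, ranked among genes with a current symbol that were measured on all 4 arrays and had a gap wider than the range of either genotype. By the same ranking, which leaves out genes at background in a genotype, none of the 10 largest lower ones lay within 5 Mb of Ip6k1. Of the 16219 genes with a current symbol measured on all 4 arrays, 0.943% lie in that window. In the whole window 203 genes were tested and 0 passed. A gap between genotypes larger than the range within either was found for 8 on the lower and 20 on the higher side, together 13.8%, against 3.11% and 4.14%, together 7.25%, of all genes. Within 1 Mb it was found for 2 and 6 of 71, or 11.3%. Hyal3, a hyaluronidase relative, was at background on both wild type arrays and at least 1.74-fold above that limit on the knockout arrays. Spink8, described above among the inhibitors, lies in the window too. It was strongly lower in knockout, but at background on both knockout arrays, so it could not enter the ranking of lower genes. The genotype of the flanking chromosome is not given in the labels, and its part in these values was not tested. Outside the window, Slc39a8, a zinc transporter, and Lamtor2, a lysosomal adaptor, were higher by 1.97 and 1.29 (limma adjusted p = 1 for both).

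**Figure D5:**
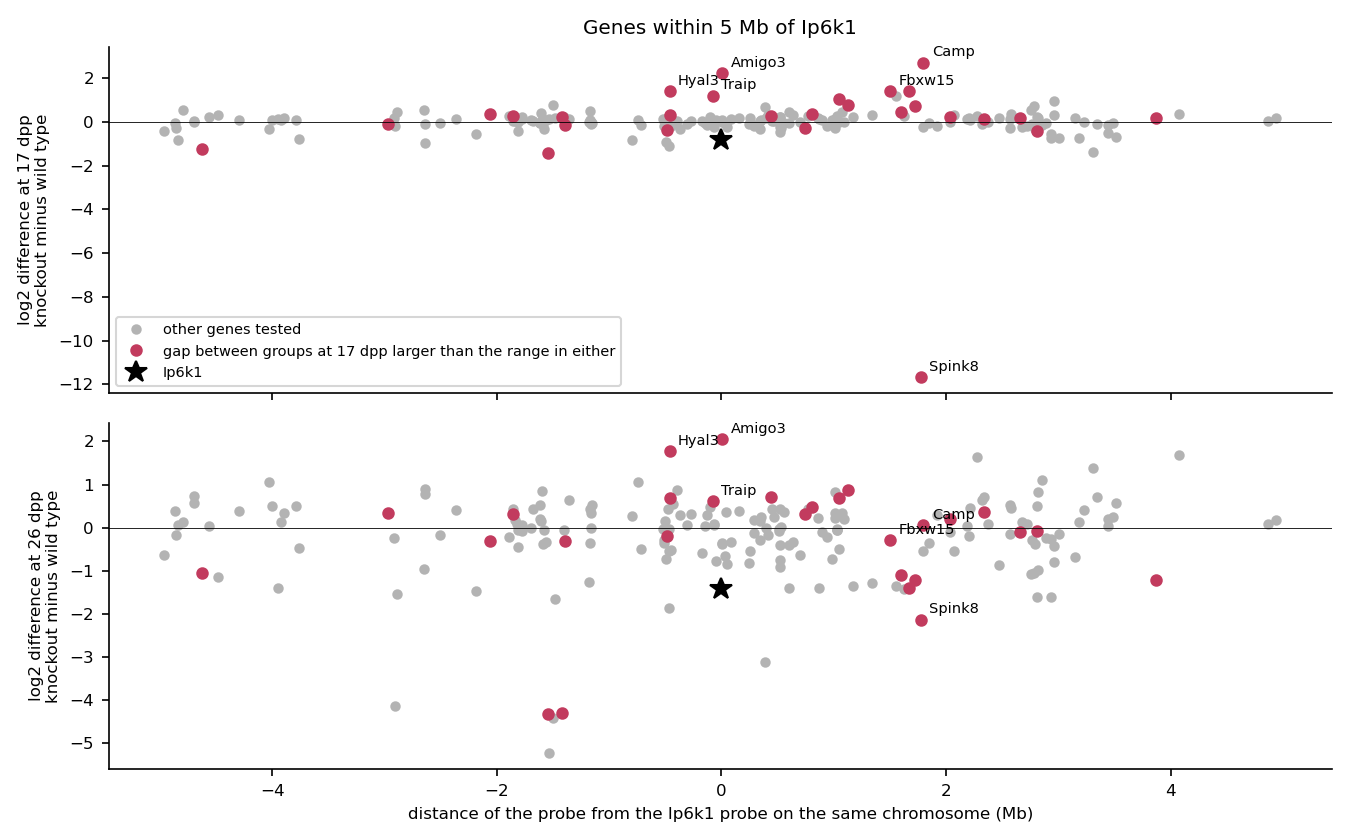
Log2 difference, knockout minus wild type, at 17 dpp (top) and 26 dpp (bottom) against the distance of a gene's probe from the Ip6k1 probe in Mb (x axis), for the 203 genes tested within 5 Mb; the star is Ip6k1, red points are genes whose gap between genotypes at 17 dpp is larger than the range within either, grey points all others. Amigo3 is higher by 2.23 at 17 dpp and by 2.06 at 26 dpp, whereas Camp is higher by 2.71 at 17 dpp and differs by 0.055 at 26 dpp.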

How the data were processed

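Total RNA of testes was labelled with Cy3 through an oligo-dT primed reaction and hybridised to 1-colour Agilent arrays, per the labels' protocols. The deposited scanner files hold intensity values on a linear scale with flags, written by Agilent Feature Extraction, version 11.5.1.1 per the file headers and also listed in the submitters' processing notes, and their processed signal is background-corrected, per the file headers. The table of values from the authors holds log2 values of unstated scale and centring; against log2 of the processed signal its columns correlated at 0.999906 to 0.999946 across probes, and their medians were −3.69, −3.69, −3.67 and −3.63 at 17 dpp (wild type, then knockout) and −3.59, −3.64, −3.62 and −3.84 at 26 dpp. How the authors combined spots is unknown.

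Outlier and control spots were left out, spots of a probe were averaged, and log2 processed signal minus the array's 75th percentile was taken. A probe was kept if some group had it well above background on both of its arrays (37813 of 55681; 97 more lacked a value), and the brightest kept probe stood for a gene (26581 genes). Current symbols came from RefSeq, by accession for 27509 probes, by an accession list for 84 and already in the file for 3497; 24591 probes kept the file's name. Coordinates are mm9, as in the files; exons and UTRs were not assigned.

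Genotypes were compared with limma 3.58.1 in R 4.3.3 (package data.table, version 1.17.8), with 1 mean per group over all 8 arrays, 4 residual degrees of freedom, a prior worth 2.05, two-sided tests and Benjamini-Hochberg adjustment; an adjusted p under 0.05 passed. The scripts were tested on simulated data, with 50 genes moved by each of 4 log2 differences. Of these, 78% were called at −6, 64% at −4, 20% at −2 and 24% at 2, with 4 false calls. Simulated differences of 2 units were thus mostly missed, so a gene without a call may still differ. Nothing says that replicates came from separate litters, so p-values measure the spread between these samples. For a gene at background in most groups, that pooled spread includes the small spread of dim arrays. For an "at least" fold, a dim array counted at the lowest signal of any probe well above background there, or at the probe's own signal where that was higher; group means were then compared. Named genes are the Ip6k and Ppip5k families, called genes, the brightest member and the 4 with the smallest p of each list, all measured epididymis-type members, the 10 largest differences each way among genes measured on all 4 arrays with a gap between groups larger than the range within either, and such genes within 5 Mb of Ip6k1. The genes, lists and rules were chosen with earlier results of these data known. Lists are described by counts and medians without a test. The alternatives were other samples in the fit, a replicate block, other background corrections, scalings and filters, the deposited table, another variance model, the mean of a gene's probes, and each array left out.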

Additional observations from a re-analysis of the deposited data

How the results depend on the processing

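The count of called genes at 17 dpp was 24 as reported and stayed within 1.5 times of it with median scaling (23), the deposited value table (25) and the mean of a gene's probes (27). It was 0 with only the 4 arrays of 17 dpp, where 999 genes had an unadjusted limma p under 0.05, 2 with normexp and the 75th percentile, 1 with normexp and quantile normalization, 8 with no filter, 0 when every tested probe had to be well above background on all 4 arrays, and 4 with a variance trend. With each array left out it ranged from 0 to 28. It was 0 without either knockout array of 17 dpp, without wild type replicate 2 of 17 dpp or without either wild type array of 26 dpp, 13 without wild type replicate 1 of 17 dpp, and 28 without either knockout array of 26 dpp, where 4 genes were called higher. The last pair gives 1 value because each leaves the same residuals. The count for the difference between ages, 0, ranged from 0 to 8639 with each array left out, and 8639 was the value without knockout replicate 1 of 26 dpp, which leaves the array that stood apart alone in its group. The median of the epididymis secretory list was −0.12 over the 10 members well above background on all 4 arrays. With the replicate block 0 genes were called, and 0 with it on the 4 arrays of 17 dpp alone, an alternative added after seeing the data. The labels do not say that replicate numbers pair the samples. Deviations of same-numbered arrays correlated at 0.11 between the genotypes of 17 dpp and at −0.40 at 26 dpp. The latter value includes the array that stood apart, and such correlations cannot settle whether samples were paired.

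A group left with 1 array was assumed to vary like the others. The difference between ages could not be fitted with the arrays of 17 dpp alone. No called gene changed sign under any alternative in which it was tested. Among the other genes named, signs turned as follows. With normexp and the 75th percentile, Ppip5k2 differed by 0.027 and Tdrd6 by 0.29, and with quantile normalization Ppip5k2 by 0.012, Clu by 0.026 and Tdrd6 by 0.26. With each array left out in turn, the range was Adam2 −2.48 to 1.41, Defb19 −0.13 to 0.16, Eppin −0.11 to 0.064, Hspa2 −0.79 to 0.44 and Ldhc −2.79 to 1.57. It was Piwil1 −1.99 to 1.48, Ppip5k2 −0.12 to 0.084, Prm2 −0.0070 to 0.75, Tdrd6 −2.06 to 2.03 and Tekt1 −2.13 to 1.20. The cause of these changes was not tested. Dim probes and 2 arrays a group limit the precision.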
